A study of Mus musculus with 9 samples.

Results

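The genes described here are 10 liver transcripts of the p53 and cell death programme: Cdkn1a, Ccng1, Mdm2, Bbc3, Bax, Perp, Trp53inp1, Gadd45a, Gadd45b and Gadd45g. They were taken by name from a table of 54532 genes, with earlier results of these data known. All 10 passed the filter on low values, a mean of at least 0.5 FPKM (fragments per exon length and library depth) over the 9 libraries, which 11852 genes passed. Liver RNA was sequenced in 3 groups of 3 libraries. The wild type group (WT) and the Cth knockout group were given drinking water, and the third group was Cth knockout given water with 1% betaine. Cystathionine gamma-lyase, the product of Cth, releases cysteine at the last step of transsulfuration, and betaine is a methyl donor for homocysteine. The series asks what loss of this enzyme does in chronic liver disease. The labels give no strain, age, sex, knockout design or duration of betaine, and no betaine-treated wild type is among the 9 libraries. They do not say that the libraries of a group came from separate animals, so p-values measure only the spread between these libraries.

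The transcription factor p53 is held low in unstressed cells by Mdm2, a ubiquitin ligase that is itself a p53 target. Once stabilised, p53 raises arrest genes such as Cdkn1a, which encodes the cyclin-dependent kinase inhibitor p21, and death genes such as Bbc3 (PUMA), a BH3-only protein that blocks survival proteins of the BCL2 family so that Bax can open the outer mitochondrial membrane. The GADD45 proteins are small stress sensors that bind the kinase MAP3K4 and the replication factor PCNA. Several of these genes also respond to signals other than p53 in liver, among them FoxO factors, glucocorticoids, cytokines and NF-kB, so a transcript level alone does not report p53 activity.

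To show how far the members share the p53 recognition sequence, the 250 bases before each RefSeq transcript start (GRCm38.p6) were searched for the stretch nearest to the p53 consensus, a pair of adjacent 10-base decamers that reads the same on both strands. Windows were found for 8 of the 10 members. The nearest 20-base stretch of each is printed 5′ to 3′ along the gene, with capitals for bases that match the consensus and lower case for those that do not:
Cdkn1a: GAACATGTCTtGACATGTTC
Ccng1: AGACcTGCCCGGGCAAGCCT
Bbc3: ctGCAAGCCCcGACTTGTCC
Bax: AGcaTAtCCCAGGCAAGCTT
Gadd45a: AAACTAcCTaGAGCTgGCTC
Gadd45g: GGGCTctCCCGGcCcAGCCT
Mdm2: GAACTTGCCTAGcgAccaTT
Gadd45b: ttcCATcTCCAGcCAAtCTC
The Cdkn1a stretch (chr17:29090928-29090947, plus strand) had 1 mismatch and began 51 bases before the start at base 29090979. The Ccng1 stretch (chr11:40755462-40755481, minus strand) also had 1 mismatch and began 195 bases before the start. Of 32841 windows of this length, 0.0761% held a stretch with so few mismatches. Those of Bbc3 (chr7:16309486-16309505, plus strand), Bax (chr7:45467090-45467109, minus strand) and Gadd45a (chr6:67037632-67037651, minus strand) had 3 mismatches, as few as in 5.32% of windows. Gadd45g (chr13:51846655-51846674, plus strand) had 4, as few as in 26.1% of windows. Mdm2 (chr10:117710925-117710944, minus strand) had 5 and Gadd45b (chr10:80929940-80929959, plus strand) had 6, reached by 71.1% and 97.4% of windows. The 8 members had 11 windows, and each stretch printed is from the window with the fewest mismatches. The other window of Cdkn1a had 5 mismatches and the others of Bbc3 had 5 and 8, whereas the percentages count single windows. Ccng1, and Cdkn1a in 1 of its windows, thus carried a stretch that few windows hold, whereas those of Mdm2 and Gadd45b were no closer than in most. Bases after the start were not searched. A match is a description of letters and not a measured binding site.

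Reads recovered from the FPKM and exon lengths came to 15184982 to 17473962 per library, and the members had between 9 reads (Gadd45b) and 9882 reads (Trp53inp1) in a library. For a transcript of 1 kb the limit of 3 reads is 0.162 to 0.222 FPKM, a floor that covers counting error only. The check of the labels held: Cth measured 219 to 285.4 FPKM in the wild type libraries and 0.278 to 0.781 FPKM in the other 6. Albumin, the main secreted hepatocyte protein, measured 18958 to 51130 FPKM. Wild type replicate 3 stood apart. Its level of Xist, expressed from the silenced X chromosome of females, was 26.6 FPKM where the other 8 had 0.0124 FPKM or less. Uty, Kdm5d, Eif2s3y and Ddx3y, genes of the Y chromosome, were listed at 0 there alone. Of all tested genes 16.6% had their highest value in it, against 7.69% to 14.7% in each other library, and 23.2% were lower in it than in all other 8. Values without that library are therefore given beside the results. The sum of hepatocyte markers was 46136 to 65478 FPKM (wild type), 39053 to 50698 FPKM (knockout) and 31435 to 43779 FPKM (betaine), so betaine and wild type did not overlap. Most of that sum is Alb, which did not overlap (31206 to 51130 FPKM in wild type and 18958 to 26866 FPKM with betaine). Hnf4a did not overlap either (146.79 to 211.11 and 81.7 to 96.5 FPKM). The rest of the list overlapped, among them Apoa1 (5106 to 5814 and 4340.2 to 8091 FPKM) and Serpina1a (1127 to 1396 and 1187 to 1602 FPKM). Between knockout and wild type the sums overlapped, but single markers went both ways. Alb, Hnf4a and Cps1 were lower in the knockout without overlap, and Apoa1 and Serpina1a were higher. The pancreas list, which rests on Cela1 and has 2 of its 4 markers at 0 throughout, was 5.54 to 6.41, 11.9 to 14.5 and 8.26 to 12.8 FPKM. The other 10 marker lists overlapped in all comparisons, and the part of these markers in the results was not tested. Short transcripts were higher in the knockout and long ones lower: the median log2 difference from wild type was 0.35 in the shortest class of exon length and -0.25 in the longest. The total of FPKM was 373773 to 449224 (wild type), 533733 to 584197 (knockout) and 379601 to 477667 with betaine. Rescaling all libraries to 1 common total (TPM) moved the median of all genes from 0.015 to -0.36 in knockout minus wild type and from -0.0016 to 0.33 in betaine minus knockout. The share of calls that were higher went from 50.1% to 13.8% in the first comparison and from 40% to 95.8% in the second. Scaling to each library's own read total gave 37.5% and 80.6%, and 69.6% against 50.4% in betaine minus wild type.

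The comparison of the knockout with wild type asked which of these transcripts differ when the enzyme is missing. Bax rose, and Perp, Trp53inp1 and Gadd45b fell, 4 of the 10 members against 25.6% of all tested genes. By direction, the calls were 1 higher where 12.8% of all genes were called higher, and 3 lower where 12.7% were called lower. The arrest genes Cdkn1a and Ccng1, the p53 inhibitor Mdm2, Bbc3, Gadd45a and Gadd45g did not pass. The median log2 fold change of the members was -0.22, against 0.015 over all tested genes, and 0.099 without wild type replicate 3. That fit called 4 of the 10 as well, where 21.7% of all genes were called. Groups did not overlap for 5 of the 10 members, the 4 called and Mdm2, against 46.8% of all genes. In bulk tissue, fewer cells of a type and less RNA per cell cannot be told apart. Tests were two-sided, with limma over 9 libraries and Benjamini-Hochberg adjusted p under 0.05, and log2 fold changes are on the log2(FPKM + 0.5) scale, ± SE of the fit with n = 3 libraries per group.

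In the comparison of betaine-treated with untreated knockout, which asked what betaine changes once the enzyme is missing, Bbc3 was the only member called, and it was 1 of only 5 genes called in the whole table (0.0422% of all tested genes, with 0.0169% called higher and 0.0253% lower). Groups did not overlap for Bbc3, Bax and Gadd45b, 3 of the 10, against 30.3% of all genes. The members' median was 0.13, with -0.0016 over all genes. Without wild type replicate 3, which enters this comparison only through the shared estimate of spread, Bbc3 was again the 1 member called, beside 2.3% of all genes.

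Against wild type, the betaine-treated knockout had higher Bbc3 and lower Perp and Gadd45b, 3 of the 10 against 11.7% of all genes. The single higher call stood beside 5.87% of all genes called higher, and the 2 lower calls beside 5.78% called lower. Groups did not overlap for 4 of the 10, Gadd45a being the fourth, against 32.2% of all genes, and the median was 0.046, with 0.0050 over all genes. The 3 comparisons share libraries in pairs, so their values are given side by side and not as independent evidence. Without wild type replicate 3 the fit again called 3 of the 10, with 12% of all genes called.

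**Figure D1:**
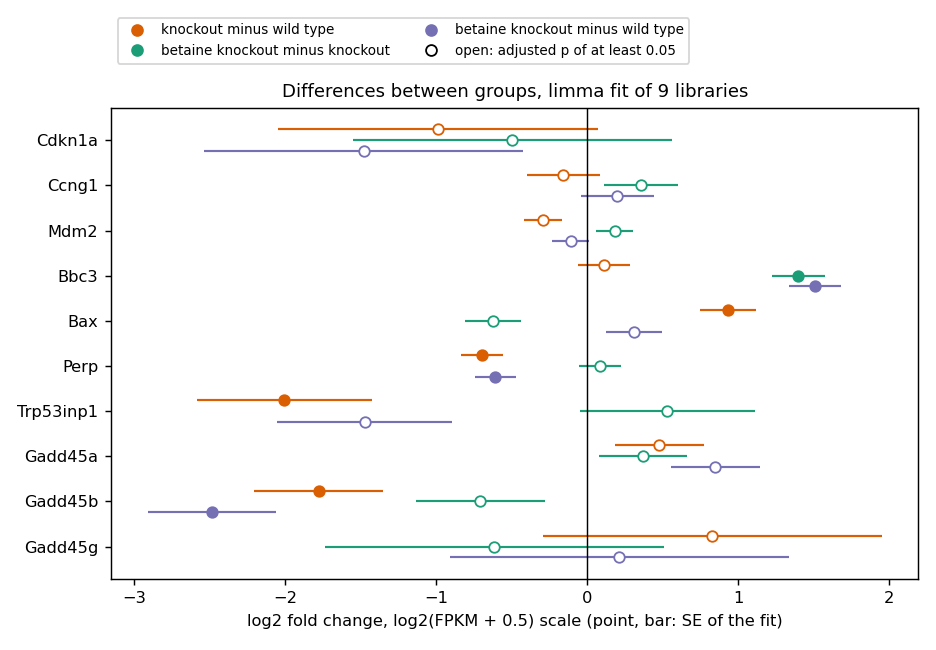
Log2 fold change of each gene (x axis, log2(FPKM + 0.5) scale) in the 3 comparisons, as points with the SE of the limma fit of 9 libraries; filled points have an adjusted p under 0.05. Bbc3 stands at 1.40 and 1.51 in both betaine comparisons and at 0.11 in knockout minus wild type, while the bars of Cdkn1a and Gadd45g are the widest.

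Bbc3 (ENSMUSG00000002083, chromosome 7, bases 16308393 to 16318205 of GRCm38, protein-coding) was higher with betaine than in either other group. It measured 3.47, 3.79 and 3.67 FPKM in wild type replicates 1 to 3 and 4.98, 3.42 and 3.67 FPKM in the untreated knockout. In the betaine group it measured 13.9, 11.1 and 9.26 FPKM. The 3 betaine libraries were thus all above the other 6, whose wild type and knockout ranges overlapped. Its promoter stretch printed above differed from the consensus at 3 of 20 bases. Mean levels were 3.64 ± 0.16, 4.02 ± 0.84 and 11.4 ± 2.34 FPKM (SD, n = 3) in wild type, knockout and betaine. The log2 fold change was 1.40 ± 0.17 for betaine minus knockout (limma adjusted p = 0.0391) and 1.51 ± 0.17 for betaine minus wild type (adjusted p = 0.00387).

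The reads behind Bbc3 were 103 to 143 in the 6 libraries without betaine and 498, 438 and 316 with it. Knockout minus wild type gave 0.11 ± 0.17 (adjusted p = 0.660), and this small value changed sign under several settings. The betaine minus wild type call was kept in all 9 fits that left out 1 library each. The betaine minus knockout call was kept in 4 of them, with log2 fold changes of 1.25 to 1.54. It was lost without wild type replicate 1 (adjusted p = 0.0707) or 2 (0.0537), without knockout replicate 2 (0.204) or 3 (0.150), and without betaine replicate 2 (0.161). With the trend of values on exon length removed it was 1.49 (adjusted p = 0.0410). All 12 marker lists overlapped between the betaine and untreated knockout libraries.

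Bax (ENSMUSG00000003873, chromosome 7, bases 45461697 to 45466898), the pore-forming member of the BCL2 family, was highest in the untreated knockout. Its values were 9.14, 9.38 and 7.61 FPKM in wild type, 15.6, 17.6 and 18.1 FPKM in the knockout and 14.7, 8.63 and 10.1 FPKM with betaine. All 3 knockout libraries stood above every other library, and betaine replicate 1 lay close below them while the other 2 betaine libraries lay near wild type. The group means were 8.71 ± 0.96, 17.1 ± 1.31 and 11.1 ± 3.13 FPKM (SD, n = 3). Knockout minus wild type was 0.93 ± 0.18 (limma adjusted p = 0.00987), kept in all 9 fits without 1 library. Bax has 1576 exon bases and belongs to the short transcripts, which were higher in the knockout as a class. With the length trend removed its value was 0.56 (adjusted p = 0.0270), and leaving out wild type replicate 3 in that fit gave 0.53 (adjusted p = 0.0512). Betaine minus knockout was -0.62 ± 0.18 (adjusted p = 0.119) and did not pass, except without betaine replicate 1, where it was -0.83 (adjusted p = 0.0273). A readthrough gene model on the same strand, Gm45808, was listed at 0 in all libraries.

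Perp (ENSMUSG00000019851, chromosome 10, bases 18845020 to 18857073) encodes a membrane protein of desmosomes that p53 induces during apoptosis. It measured 46.1, 56.4 and 55.7 FPKM in wild type. In the knockout it measured 35.3, 31.5 and 30.2 FPKM, and with betaine 37.9, 30.4 and 35.0 FPKM. All 6 knockout libraries were below all 3 wild type ones, and the treated and untreated knockout overlapped. The fall in the knockout was -0.69 ± 0.14 (limma adjusted p = 0.0100), kept in all 9 fits without 1 library. Betaine minus wild type was -0.61 ± 0.14 (adjusted p = 0.0262), kept in 6 and lost without wild type replicate 2 (0.0754), betaine replicate 2 (0.0517) or betaine replicate 3 (0.0804). With the length trend removed these values were -0.99 and -0.78, and Perp, at 1952 exon bases, is among the short transcripts.

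Trp53inp1 (ENSMUSG00000028211, chromosome 4, bases 11156431 to 11174379) encodes a p53-induced nuclear protein of cell death and autophagy. Wild type gave 21.7, 13.7 and 84.4 FPKM, the knockout 7.55, 5.44 and 8.19 FPKM and the betaine group 7.76, 9.44 and 14.8 FPKM. Wild type replicate 3 was 3.88 times the highest of the other 8 libraries. The knockout lay below wild type without overlap, and the betaine group overlapped both. The fall in the knockout was -2.003 ± 0.58 (limma adjusted p = 0.0374). Leaving out wild type replicate 3 gave a smaller change with a smaller error, -1.25 ± 0.30 (adjusted p = 0.0242). The call was kept in 4 of the 9 fits without 1 library and lost without wild type replicate 1 (0.0604), knockout replicates 1, 2 or 3 (0.0778, 0.117 and 0.0772) or betaine replicate 2 (0.0531). Trp53inp1 is the longest of the members, at 6475 exon bases, and with the length trend removed its value was -1.82 (adjusted p = 0.0580), or -1.06 (adjusted p = 0.0410) without wild type replicate 3 as well. Betaine minus wild type was -1.47 ± 0.58 (adjusted p = 0.130).

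**Figure D2:**
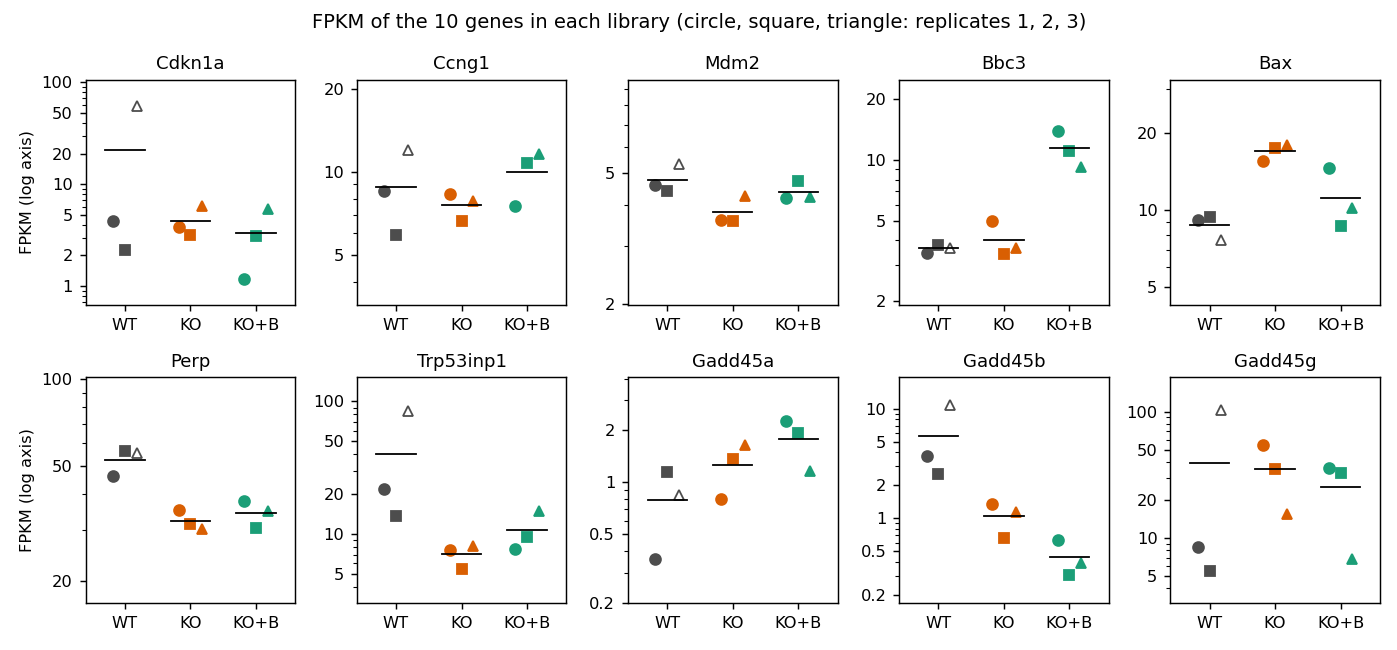
FPKM of the 10 genes in each library (y axis, log scale, set for each gene) by group (WT wild type, KO untreated Cth knockout, KO+B betaine-treated knockout); circle, square and triangle are replicates 1, 2 and 3, the open triangle is wild type replicate 3 and the line is the group mean. Bbc3 is at 9.26 FPKM or more in the betaine libraries and at 4.98 FPKM or less in all others, and Cdkn1a is at 59.1 FPKM in wild type replicate 3 and at 6.10 FPKM or less elsewhere.

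Cdkn1a (ENSMUSG00000023067, chromosome 17, bases 29090976 to 29100727), whose promoter held the stretch with 1 mismatch, varied most among the members, by 50.5-fold between libraries. It measured 4.38 and 2.28 FPKM in wild type replicates 1 and 2 and 59.1 FPKM in replicate 3. The knockout gave 3.77, 3.19 and 6.10 FPKM and the betaine group 1.17, 3.13 and 5.66 FPKM. Apart from wild type replicate 3, the libraries of all 3 groups overlapped. The log2 fold change of the knockout was -0.99 ± 1.06 (limma adjusted p = 0.515) with that library and 0.35 ± 0.53 (adjusted p = 0.657) without it, so the direction rested on 1 library. Betaine minus wild type was -1.48 ± 1.06 (adjusted p = 0.385), and -0.14 without that library. An antisense gene model that shares exon bases with Cdkn1a, AC167363.2, reached 1.53 FPKM in wild type replicate 3. The labels do not say that strand was used in counting, so reads of such pairs cannot be told apart.

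Ccng1 (ENSMUSG00000020326, chromosome 11, bases 40748552 to 40755311) encodes cyclin G1, a p53 target that recruits a phosphatase to Mdm2. It also held a stretch with 1 mismatch, yet its levels lay within 2.02-fold over all libraries. Wild type gave 8.53, 5.92 and 12.0 FPKM, the knockout 8.32, 6.62 and 7.82 FPKM and the betaine group 7.52, 10.8 and 11.6 FPKM. All groups overlapped. The log2 fold changes were -0.16 ± 0.24 for knockout minus wild type, 0.36 ± 0.24 for betaine minus knockout and 0.20 ± 0.24 for betaine minus wild type (limma adjusted p = 0.659, 0.410 and 0.612). The first was 0.081 in the fit that left out wild type replicate 3.

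Mdm2 (ENSMUSG00000020184, chromosome 10, bases 117688875 to 117710758) was the steadiest member, within 1.49-fold. Its levels were 4.58, 4.41 and 5.32 FPKM in wild type, 3.60, 3.58 and 4.25 FPKM in the knockout and 4.19, 4.71 and 4.24 FPKM with betaine. Each knockout library was below each wild type one, by a small margin. Knockout minus wild type was -0.29 ± 0.12 with an unadjusted p = 0.0423 (limma adjusted p = 0.111), and -0.22 ± 0.13 (adjusted p = 0.250) without wild type replicate 3. Under TPM scaling, where the median gene also moved down, it was -0.71 and passed (adjusted p = 0.0210).

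**Figure D3:**
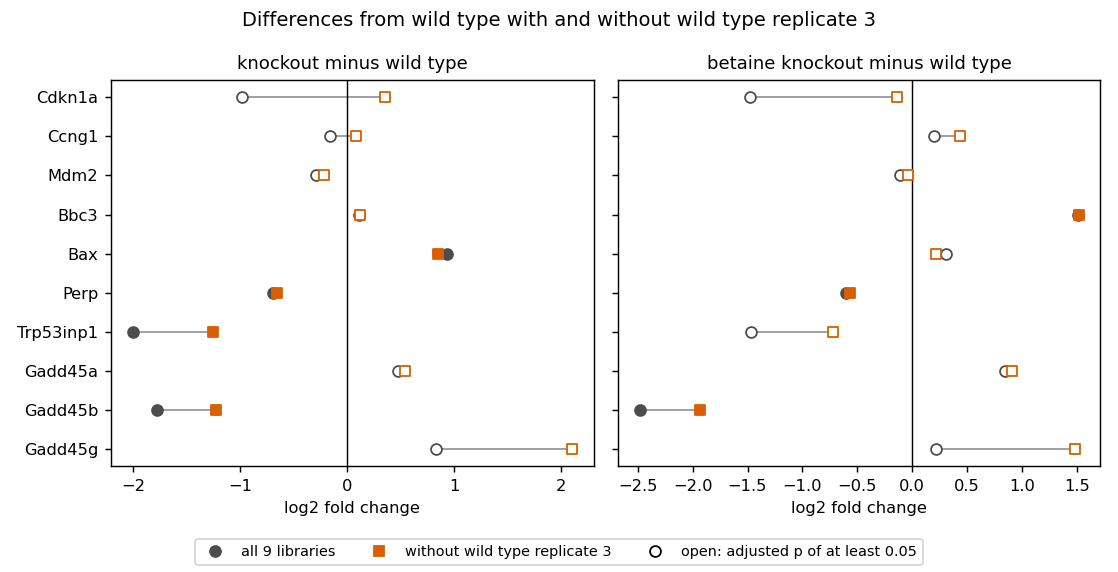
Log2 fold change from wild type (x axis, log2(FPKM + 0.5) scale) of each gene with all 9 libraries (circles) and without wild type replicate 3 (squares), for the untreated knockout (left) and the betaine-treated knockout (right); filled symbols have an adjusted p under 0.05. Cdkn1a moves from -0.99 to 0.35 and Gadd45g from 0.83 to 2.10 in the left panel, while Bbc3, Bax and Perp stay close to their values.

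Of the 3 GADD45 genes, Gadd45b was called in both comparisons with wild type and the others in none. Gadd45b (ENSMUSG00000015312, chromosome 10, bases 80930073 to 80932204), which NF-kB and TGF-beta signals induce, measured 3.68, 2.55 and 10.7 FPKM in wild type, 1.35, 0.665 and 1.14 FPKM in the knockout and 0.635, 0.306 and 0.392 FPKM with betaine. No 2 groups overlapped, with wild type highest and betaine lowest. The levels with betaine rested on 17, 9 and 10 reads. The change from wild type was -1.78 ± 0.43 in the knockout (limma adjusted p = 0.0183) and -2.48 ± 0.43 with betaine (adjusted p = 0.0116). Without wild type replicate 3 they were -1.23 ± 0.25 (adjusted p = 0.0151) and -1.93 ± 0.25 (adjusted p = 0.00477). The knockout call was lost without knockout replicate 2 (-1.58, adjusted p = 0.0724). The step from knockout to betaine was -0.71 ± 0.43 (adjusted p = 0.351) and did not pass. With the length trend removed, the falls from wild type were -2.15 and -2.69.

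Gadd45a (ENSMUSG00000036390, chromosome 6, bases 67035096 to 67037457), a target of both p53 and the amino acid stress factor ATF4, was the least abundant member in the wild type libraries. Its levels were 0.360, 1.15 and 0.846 FPKM in wild type, 0.797, 1.36 and 1.64 FPKM in the knockout and 2.25, 1.93 and 1.16 FPKM with betaine. The betaine libraries were above the wild type ones narrowly (1.16 against 1.15 FPKM), and the knockout overlapped both. Only 10 to 67 reads per library lay behind these values. Betaine minus wild type was 0.85 ± 0.29 (unadjusted p = 0.0172, limma adjusted p = 0.0883), and the other comparisons gave 0.48 ± 0.29 and 0.37 ± 0.29 (adjusted p = 0.249 and 0.479). An antisense transcript that shares exon bases, E230016M11Rik, measured 0.0681 to 0.385 FPKM.

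Gadd45g (ENSMUSG00000021453, chromosome 13, bases 51846678 to 51848468), which cytokine signals induce, varied by 18.7-fold and mostly within groups. Wild type gave 8.55 and 5.52 FPKM in replicates 1 and 2 and 103 FPKM in replicate 3. The knockout gave 54.8, 35.4 and 15.5 FPKM and the betaine group 35.8, 32.9 and 6.79 FPKM. All 3 knockout libraries were above wild type replicates 1 and 2 and below replicate 3. Knockout minus wild type was 0.83 ± 1.12 (limma adjusted p = 0.611), and 2.10 ± 0.75 (adjusted p = 0.0804) without wild type replicate 3. Betaine minus knockout was -0.61 ± 1.12 (adjusted p = 0.778).

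Wild type replicate 3 held the highest level of 6 of the 10 members, against 16.6% of all tested genes. Cdkn1a, Gadd45g, Trp53inp1 and Gadd45b were highest there by 1.88-fold or more over the next library, and Mdm2 and Ccng1 by only 1.13-fold and 1.03-fold. Bbc3, Bax, Perp and Gadd45a were not raised there, and Bax was at its lowest (7.61 FPKM against 8.63 FPKM or more elsewhere). For Cdkn1a and Trp53inp1 the transcripts with the most similar profile were taken by the mean absolute difference of centred log2 values over the 9 libraries. That they were high in that library follows from this choice. Ptp4a1 (gene ID ENSMUSG00000117310), a protein tyrosine phosphatase and the nearest to Trp53inp1, was at a difference of 0.228 and measured 6.03 FPKM there and 0.136 to 2.14 FPKM elsewhere. Tcim was at a difference of 0.439 from Cdkn1a and measured 44.1 FPKM there and 2.92 to 7.70 FPKM elsewhere. Cyp3a41b, a cytochrome P450, was at 0.435 and measured 7.58 FPKM there and at most 0.0317 FPKM elsewhere. Pptc7, a mitochondrial phosphatase, was at 0.289 from Trp53inp1 and measured 11.4 FPKM there, 3.36 and 3.09 FPKM in the other wild type libraries and 0.657 to 2.72 FPKM in the rest. Genes of the FoxO, glucocorticoid and fasting-responsive list, named here outside the rule for examples, were compared with the mean of wild type replicates 1 and 2. In replicate 3 Foxo4 and Irs2 were at 0.896 and 0.971 times that mean. The rest of the list lay above it, from 1.56 times (Klf15) to 6.90 times (Fkbp5) and 7.71 times (Igfbp1). The part of that library's sex, or of such signals, in the levels of the members there was not tested.

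The profile nearest to Bbc3 was that of Fzd8, a Wnt receptor, at 0.173. It measured 3.43, 2.85 and 3.68 FPKM in wild type, 4.27, 3.64 and 2.73 FPKM in the knockout and 11.3, 8.68 and 6.12 FPKM with betaine. That its betaine libraries were above all others follows from the choice by profile. Among the profiles nearest to Bax was that of the mitochondrially encoded mt-Co1, a subunit of cytochrome c oxidase, at 0.066. It ranged over 11136 to 14485 FPKM (wild type), 23018 to 27605 FPKM (knockout) and 12222 to 20046 FPKM (betaine). The gene nearest to Gadd45b was Il6ra, the interleukin-6 receptor, at 0.278, with 18.5 FPKM in wild type replicate 3 and 1.71 to 7.001 FPKM elsewhere.

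Other genes of the pathway were taken from 10 lists with 192 different genes, of which 146 were tested. In knockout minus wild type 8 of the 146 rose and 22 fell, in betaine minus knockout 0 passed in limma (25 at an unadjusted p under 0.05), and in betaine minus wild type 10 rose and 11 fell. Over all tested genes 12.8% were called higher and 12.7% lower in the first comparison, and 5.87% and 5.78% in the last. The medians of the lists were -0.16, 0.093 and -0.066 in that order, with 0.015, -0.0016 and 0.0050 over all tested genes. Removing the length trend gave 7 higher and 13 lower in the knockout. Leaving out wild type replicate 3, limma called 7 of the 146 higher with 20 lower in the knockout, 4 higher in betaine minus knockout (38 at an unadjusted p under 0.05), and 9 higher with 11 lower in betaine minus wild type. Trp53 itself, named outside the rule for examples, ranged over 2.99 to 3.49 FPKM (wild type), 4.20 to 4.59 FPKM (knockout) and 3.23 to 6.30 FPKM (betaine). Its log2 fold changes of 0.42 ± 0.20 and 0.53 ± 0.20 from wild type did not pass (limma adjusted p = 0.153 and 0.115).

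**Figure D4:**
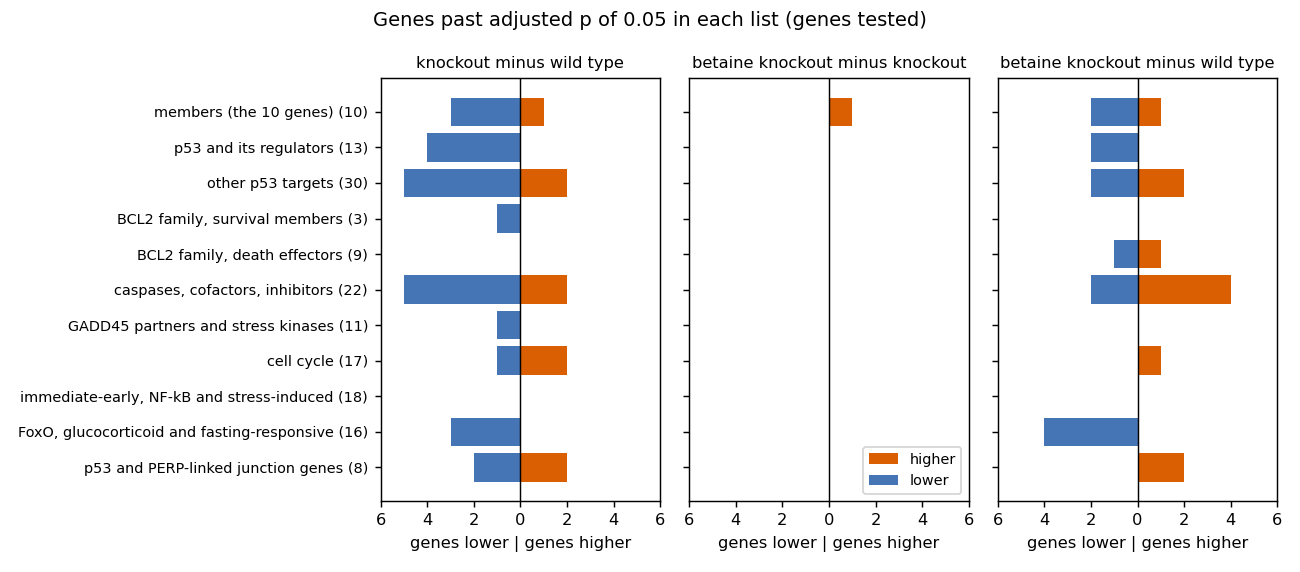
Number of genes past an adjusted p of 0.05 (x axis, lower to the left and higher to the right of 0) in the 10 members and 10 other lists, in the 3 comparisons, with the number of genes tested in brackets. In the middle panel the single call is Bbc3, and in the left panel lower calls outnumber higher ones among p53 regulators, other p53 targets and the caspase list.

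Among p53 and its regulators 4 of 13 tested fell in the knockout and 0 rose, with 6 at an unadjusted p under 0.05 in limma, where 12.7% of all genes were called lower and 12.8% higher. The median of the list was -0.16. Called were, among others, Atm (-0.91 ± 0.23), the kinase that activates p53 after DNA breaks, Hipk2 (-1.61 ± 0.40), which phosphorylates p53, and Usp7 (-0.49 ± 0.13), which removes ubiquitin from Mdm2. In wild type Hipk2 measured 2.88 to 5.83 FPKM, without overlap with the untreated knockout at 0.893 to 1.31 FPKM. With betaine it measured 0.846, 3.94 and 1.90 FPKM and overlapped both. With the length trend removed, 2 of the 13 passed, among them Hipk2 at -1.34. In betaine minus wild type 0 of the 13 rose and 2 fell, where 5.87% of all genes were called higher and 5.78% lower. Atm and Usp7 did not pass with the length trend removed in the knockout (limma adjusted p = 0.0690 and 0.180).

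Of 30 other p53 targets tested, 2 rose and 5 fell in the knockout. In betaine minus wild type 2 rose and 2 fell, where 5.87% of all genes were called higher and 5.78% lower. The 7 calls in the knockout were a share close to the 25.6% of all genes, and the median was -0.070. Fdxr, ferredoxin reductase, went from 4.26 to 4.78 FPKM (wild type) up to 9.39 to 9.72 FPKM (knockout), and measured 5.87 to 8.61 FPKM with betaine. Its changes from wild type were 0.98 ± 0.14 and 0.61 ± 0.14 (limma adjusted p = 0.00567 and 0.0274). Xpc (-0.71 ± 0.16), a DNA damage sensor, and Ei24 (-0.40 ± 0.13) fell in the knockout. Tap1, the peptide transporter of antigen presentation, rose in betaine minus wild type by 1.01 ± 0.21 and stood at 1.05 ± 0.21 in betaine minus knockout (adjusted p = 0.0837). The Ei24 call in the knockout was lost without wild type replicate 3 (adjusted p = 0.0781) and with the length trend removed (0.0814).

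**Figure D5:**
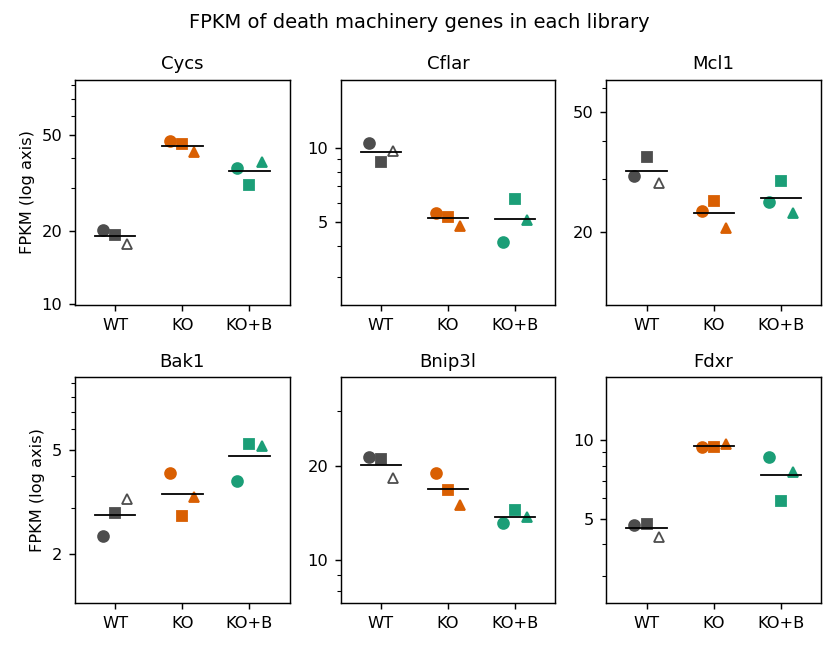
FPKM of 6 further genes of apoptosis and p53 response in each library (y axis, log scale, set for each gene), with groups, symbols and lines as in the plot of the 10 genes by library. Cycs and Fdxr are higher and Cflar lower in all 3 knockout libraries than in any wild type library.

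In the BCL2 family, the 3 survival members tested included Mcl1, which fell in the knockout by -0.45 ± 0.14 (limma adjusted p = 0.0445) from 29.1 to 35.5 FPKM down to 20.5 to 25.2 FPKM. Bcl2l2 gave -0.17 ± 0.15. Of 9 other death genes tested, 0 passed in knockout minus wild type (0 at an unadjusted p under 0.05 in limma). Over all tested genes 12.8% were called higher and 12.7% lower in that comparison, and 5.87% and 5.78% in betaine minus wild type. In betaine minus wild type Bak1, the partner of Bax, rose by 0.66 ± 0.18 (adjusted p = 0.0442) and Bnip3l, a mitophagy receptor, fell by 0.53 ± 0.13 on the log2 scale (adjusted p = 0.0294). With the length trend removed Bak1 gave 0.51 (adjusted p = 0.128). Bax in that comparison was 0.31 ± 0.18 (adjusted p = 0.288).

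Among 22 caspase genes, cofactors and inhibitors 2 rose and 5 fell in the knockout, and 4 rose and 2 fell in betaine minus wild type. Of all genes 12.8% and 12.7% were called higher and lower in the first and 5.87% and 5.78% in the second, and the list's medians were 0.087 and 0.036. Removing the length trend left 1 higher and 2 lower in the knockout. Cycs, cytochrome c, which forms the apoptosome once released, rose by 1.22 ± 0.12 in the knockout and 0.87 ± 0.12 in betaine minus wild type. Cflar, which encodes the death receptor inhibitor FLIP, fell in the same comparisons (-0.84 ± 0.15 and -0.86 ± 0.15). The limma adjusted p of these calls were 0.00447 to 0.0116.

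In the remaining lists, whose counts stand beside the same 12.8% and 12.7% of all genes in the knockout and 5.87% and 5.78% in betaine minus wild type, the knockout medians were -0.29 (GADD45 partners), -0.015 (cell cycle), -0.30 (immediate-early and NF-kB) and -0.15 (junctions). Mapk14, the p38 kinase, fell in the knockout (-0.70 ± 0.15), 1 of 11 tested GADD45 partners and stress kinases. Of 17 cell cycle genes Cdkn2d (0.68 ± 0.16) and Cdk4 (0.54 ± 0.14) rose and Ccnd2 (-0.59 ± 0.19) fell in the knockout, and 1 rose in betaine minus wild type. Ccnd2 was not called without wild type replicate 3 (limma adjusted p = 0.1002), nor Cdkn2d in the knockout with the length trend removed (0.176). No immediate-early, NF-kB or stress-induced gene passed among 18 tested in limma in the knockout, with 2 at an unadjusted p under 0.05, and none in betaine minus wild type, with 1. Nfkbia gave -0.71 ± 0.23 in betaine minus wild type and Myc 1.12 ± 0.39 in the knockout (adjusted p = 0.0748 and 0.0607), and with the length trend removed Nfkbia passed in both comparisons with wild type (-0.78 and -0.92, adjusted p = 0.0389 and 0.0360). In the list of FoxO factors and fasting-responsive genes 3 of 16 fell in the knockout and 4 in betaine minus wild type, with medians of -0.80 and -0.69 (-0.49 and -0.36 without wild type replicate 3). Foxo4 (-0.67 ± 0.14) and Foxo1 (-1.09 ± 0.34) fell in the knockout, and Pck1 (-2.11 ± 0.53) and Per1 (-2.10 ± 0.50) in betaine minus wild type. Wild type replicate 3 enlarged the changes of Foxo1 and Per1. Foxo1 measured 4.73, 4.27 and 13.0 FPKM in wild type replicates 1 to 3 and 2.58 to 3.01 FPKM in the knockout. Per1 measured 2.55, 1.92 and 7.43 FPKM in wild type and 0.134 to 1.22 FPKM with betaine. Foxo1 was not called in the knockout with the length trend removed (adjusted p = 0.112), nor Pck1 without wild type replicate 3 (0.0807). Among 8 junction genes, which include partners of Perp in desmosomes, the keratins Krt18 (1.36 ± 0.16) and Krt8 (1.10 ± 0.16) rose and the desmosomal Dsp (-1.16 ± 0.17) and Dsg2 (-0.81 ± 0.13) fell in the knockout, and 2 rose in betaine minus wild type.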

How the data were processed

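Liver RNA was measured in 9 libraries, 3 per group, mapped to groups by their titles. The authors deposited 1 FPKM value per gene and library, and DESeq2 1.16.1, featureCounts 1.5.0-p3 and HISAT2 2.0.5 are named, without roles, per the submitters' processing notes, with mm10. Annotation release, filters and strand are not given in the sources used here. Symbols were found for 54409 of 54532 genes. The union of exons in GENCODE M21 (GRCm38, which is mm10) gave lengths. With them 98.3% to 98.6% of values of up to 20 reads lay within 0.05 of a whole read. Their denominators, 13513377 to 18528020 reads, differ from the read totals, so the FPKM are relative to something other than those totals.

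The 11852 genes averaging 0.5 FPKM or more were fitted as log2(FPKM + 0.5) in 1 model of all 9 libraries with limma 3.58.1 (R 4.3.3; trend and robust), with Benjamini-Hochberg adjustment per comparison and a threshold of 0.05. The script was tested on simulated data. Alternatives were pseudocounts, filters, scalings, removal of the exon length trend, other fits, a replicate block and leaving out each library. The members, lists and tests were chosen with earlier results of these data known. All 10 members are described. Up to 4 genes with the smallest p past the threshold were named from each other list (up to 2 where fewer passed), and the 2 nearest profiles of members spanning at least 1 log2 unit could be named. Where a symbol in the lists had more than 1 gene ID, the ID with the higher mean was used, whereas nearest profiles were sought over all IDs. Promoter sequences are RefSeq's, on GRCm38.p6. Python 3.11.15 with pandas 2.3.3 and matplotlib 3.10.9 prepared the tables and figures. Some genes that this rule gives are not reported here.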

Additional observations from a re-analysis of the deposited data

How the results depend on the processing

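Over 630 values of the 10 genes in 3 comparisons under 21 alternatives, 588 kept direction and side of the threshold, 22 lost a call, 2 gained one and 18 changed sign; the cause was not tested. No called value changed sign. Leaving out 1 library, members called were 2 to 4 in knockout minus wild type, 0 to 2 in betaine minus knockout and 2 to 3 in betaine minus wild type, and all genes called were 896 to 3231, 0 to 878 and 351 to 1441. The lowest of the first was without knockout replicate 2 and of the last without betaine replicate 3. In betaine minus knockout 878 came without betaine replicate 1, 273 without wild type replicate 3 and 0 without knockout replicate 2 or 3. In betaine minus knockout Bbc3 lost its call, so that 0 members were called, with no filter on the mean (adjusted p = 0.0542), without trend and robust (0.0562) and with the replicate block (0.0640), against 1, and Bax was the second member without betaine replicate 1. All genes called there, 5, were 8 and 10 with pseudocounts of 0.1 and 1, 1 with no filter, 1754 under TPM scaling, 0 without trend and robust, 35 in a fit of the 2 groups compared, 0 with the replicate block, 67 on own read totals and 241 without wild type replicate 3 and the length trend. In betaine minus wild type, 1381 became 801 with no filter, 353 in a fit of 2 groups and 671 with the block, and in knockout minus wild type 3029 became 1890 without wild type replicate 3 and the length trend. The own read total and the last combination were chosen after seeing the data.

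Deviations from the group means correlated at -0.227 to 0.0980 between same-numbered libraries and at -0.137 to 0.263 between differently numbered ones. With 3 libraries per group these values cannot decide whether the numbers pair the samples. With the replicate block the count of 3029 was 2210, and the Perp call in betaine minus wild type was lost (adjusted p = 0.0653).

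Signs changed only in values that had not passed. Bbc3 in knockout minus wild type was -0.28 under TPM scaling, -0.15 without the length trend, -0.0010 on own read totals and -0.093 without wild type replicate 3 and the length trend, and -0.035 to 0.21 over single libraries left out. There Cdkn1a was -1.86 to 0.35 (0.34 with the length trend removed as well) and Ccng1 -0.40 to 0.081 (0.068). In betaine minus knockout Cdkn1a was -0.93 to 0.0069 and Gadd45g -1.11 to 0.14. In betaine minus wild type Ccng1 was -0.041 to 0.44, Gadd45g -0.57 to 1.49 (-0.0069 without the length trend) and Mdm2 0.014 without wild type replicate 3 and the length trend. Depth limits Gadd45a and Gadd45b most, at 10 to 67 and 9 to 307 reads per library.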
